A study of Mus musculus with 6 samples.

Results

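RUNX factors and their partners were examined in MLL-ENL–transformed mouse fetal liver cells by ATAC-seq, an assay in which a transposase cuts open DNA so that read density measures accessibility. The 6 genes considered were Runx1, Runx2, Runx3, Cbfb, Cbfa2t3 and Runx1t1. Regions were chosen by position: each region of the deposited WT against dKO table that overlapped the annotated body of 1 of these genes, extended by 50 kb on each side, was taken. This gave 17 of the 10016 regions in the table, at 4 of the 6 genes. The table holds regions that passed the threshold of the authors' comparison and no others, so every region described below had been called changed before it was taken up here, and regions that did not change could not be seen.

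WT cells were fetal liver cells transformed by a retroviral MLL-ENL fusion, with Cebpa and Cebpb in place as unrecombined floxed alleles. The dKO cells came from such cells after treatment with recombinant Cre, lacked Cebpa and Cebpb and expressed GFP, whereas the WT label names no vector. By the paper's methods, colonies were picked after the transformation and again after the Cre treatment. All were kept in 10 ng/ml of interleukin 3, and 50000 sorted cells went into each library. Both groups had 2 libraries, and the other group, dKO cells with the rat C/EBPβ isoform LAP*, was not analysed here. Which clones were used for ATAC-seq is not given in the sources used here. The paper reports that dKO clones were rare survivors of the deletion, and that all those recovered strongly expressed the C/EBPε protein. Effects of the clone, its selection, C/EBPε, the GFP vector and the deletion cannot be told apart in this comparison. The table gives the authors' mean of each group and no value per library, so the spread between replicates is unknown and no test was run from these means. Higher accessibility in each cell and accessibility in more of the cells cannot be told apart in bulk ATAC-seq. The defining markers of the cell type could not be checked, because unchanged regions are not listed. Values per region are log2 means of normalised reads per library, and a change is the dKO mean minus the WT mean, so that a change of 1 is a doubling.

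The RUNX proteins are transcription factors that bind DNA through the Runt domain. CBFβ, the product of Cbfb, does not touch DNA itself but binds the Runt domain and strengthens its hold on DNA. Runx1 is required for the first definitive blood stem cells and later acts in myeloid, megakaryocytic and lymphoid cells, Runx2 is best known as the master regulator of bone formation, and Runx3 acts in T cells and sensory neurons. Each of the 3 Runx genes is transcribed from a distal promoter, P1, and a proximal promoter, P2. Runx1t1 (ETO) and Cbfa2t3 (ETO2) encode co-repressors that are fused to RUNX1 by translocations in acute myeloid leukaemia. C/EBPα, which is missing in dKO cells, binds many myeloid enhancers together with RUNX1 and PU.1.

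Regions are named below by the distance of their centre from the most upstream annotated start of the gene, with plus pointing into the gene. Sequences of 7 regions are shown before the values, 5 of them as 200 bp about the region centre on the plus strand of mm10. These 5 are the pair with the largest rises at Runx2, the Runx3 region with both a RUNX and an AP-1 word, the largest rise at Runx1, and the lower Runx2 region. Capitals mark the words of RUNX (AACCACA or its complement TGTGGTT), C/EBP (TTGCNNAA or TTACNNAA), PU.1 (GAGGAAGT) or AP-1 (TGAGTCA or TGACTCA), read on either strand.
Runx2 +76.7 kb, chr17:44737978-44738177: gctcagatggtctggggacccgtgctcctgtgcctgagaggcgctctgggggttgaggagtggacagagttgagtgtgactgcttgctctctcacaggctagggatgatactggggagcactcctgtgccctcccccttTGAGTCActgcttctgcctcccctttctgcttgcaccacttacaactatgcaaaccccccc
Runx2 -16.6 kb, chr17:44831288-44831487: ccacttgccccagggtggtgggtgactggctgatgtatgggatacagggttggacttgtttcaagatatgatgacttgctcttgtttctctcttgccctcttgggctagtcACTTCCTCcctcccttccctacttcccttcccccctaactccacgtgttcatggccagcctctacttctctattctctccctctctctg
Runx3 +48.6 kb, chr4:135169180-135169379: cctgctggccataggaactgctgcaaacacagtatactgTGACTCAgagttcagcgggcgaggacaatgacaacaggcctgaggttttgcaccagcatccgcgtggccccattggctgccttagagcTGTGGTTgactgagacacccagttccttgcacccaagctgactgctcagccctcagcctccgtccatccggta
Runx1 -35.7 kb, chr16:92861714-92861913: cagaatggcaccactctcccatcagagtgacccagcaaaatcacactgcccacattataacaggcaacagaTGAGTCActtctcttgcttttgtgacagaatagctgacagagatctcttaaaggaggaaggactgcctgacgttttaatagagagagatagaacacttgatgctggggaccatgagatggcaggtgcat
Runx2 +269.3 kb, chr17:44545397-44545596: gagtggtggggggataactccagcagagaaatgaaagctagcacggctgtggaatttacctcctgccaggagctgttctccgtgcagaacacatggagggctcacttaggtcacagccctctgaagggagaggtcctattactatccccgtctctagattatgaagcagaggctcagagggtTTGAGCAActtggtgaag
At 2 further regions the word lay outside the central stretch and is shown with 20 bases on each side. The first is a RUNX word at Runx3 -22.2 kb, which holds the strongest rise at Runx3, and the second is a C/EBP word at Cbfa2t3 +33.7 kb, the region with the strongest fall.
Runx3 -22.2 kb, chr4:135098581-135098627: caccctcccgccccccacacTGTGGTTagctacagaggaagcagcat
Cbfa2t3 +33.7 kb, chr8:122665540-122665587: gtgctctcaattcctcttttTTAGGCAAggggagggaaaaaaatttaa

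Accessibility was higher in dKO at 15 of the 17 regions and lower at 2. The share higher was 88.2% at these genes, beside 60.3% of all listed regions, and 39.7% of all were lower. At least 2-fold higher were 12 of the 17 regions (70.6%), against 49.6% of the table. At least 2-fold lower were 2 of the 17, which are both of the lower regions, against 35.9% of the table. The median change was 1.33 at these regions and 0.98 over the table. Regions at 1 gene share their locus, so these shares describe the 4 loci, and their difference from the table was not tested. Of the 17 regions, 8 also lie in the window of another protein-coding gene. Requiring a nearer position changed the number of regions but not the larger share of rises: within 10 kb of the gene bodies 9 regions were higher and 2 lower, and by the nearest annotated start 8 were higher and 1 lower. Relative to the median change of the table, 12 regions were higher (70.6%) and 5 lower, and Cbfa2t3 turned from 2 higher and 1 lower to 1 higher and 2 lower. Centring splits the table evenly into higher and lower regions by construction, so this share is not to be read beside 60.3%.

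**Figure D1:**
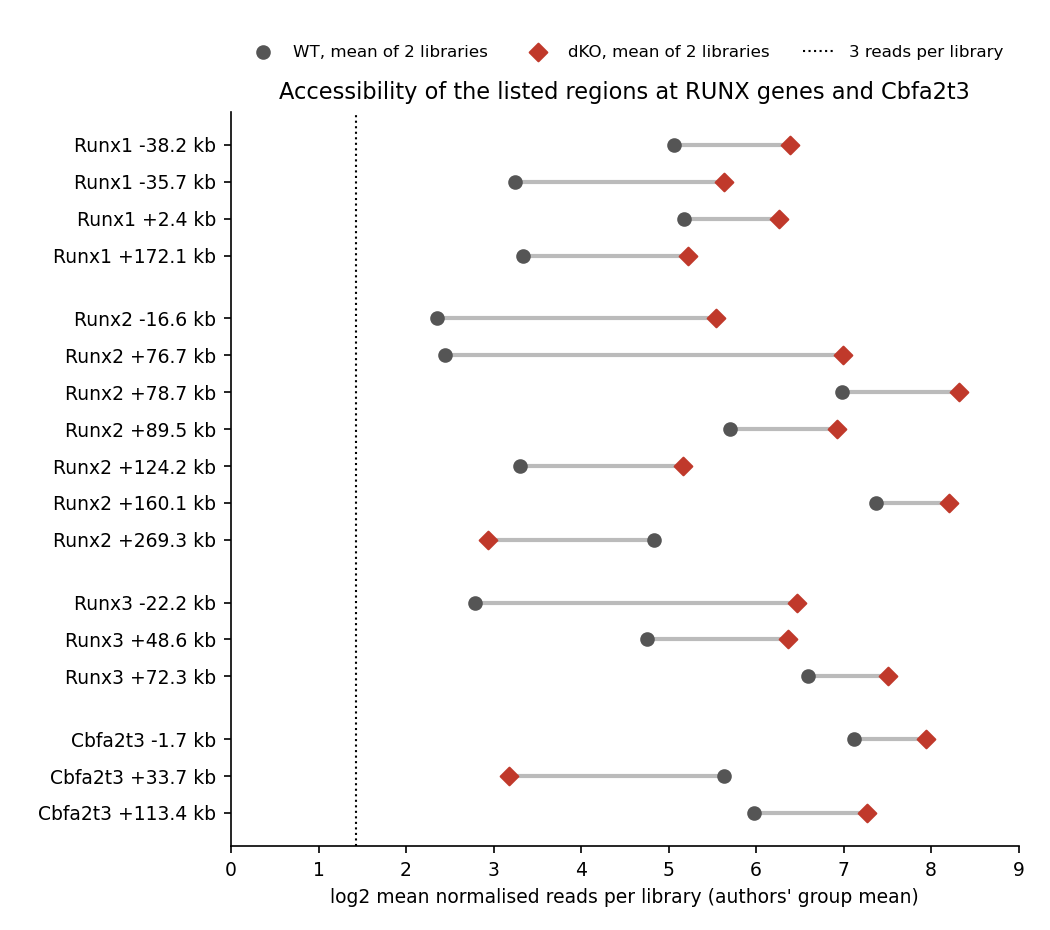
Group means of the 17 regions (x axis, log2 mean normalised reads per library) in WT (grey circles) and dKO (red diamonds), by gene and distance from the most upstream start. The dKO mean lies to the right in 15 regions and to the left at Runx2 +269.3 kb and Cbfa2t3 +33.7 kb, and every mean is above the level of 3 reads per library (dotted line, 1.43).

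The deletion was checked at its own loci. At Cebpa, a region over the start and coding part (chromosome 7, 35118826 to 35119650) had an authors' mean of 9.99 in WT and -0.15 in dKO, the lowest level that occurs. Set against 3 reads in each library, this was at least 377-fold lower. At the Cebpb locus the authors' mean fell from 8.60 to 3.37 over the start (chromosome 2, 167688638 to 167689380) and from 7.38 to -0.15 over the end of the coding part and the 3′ untranslated part (167689715 to 167690187), the second at least 61.8-fold. Reads do not arise from deleted DNA, so values within the deletion check the labels and not accessibility. The low values of the table fall on steps of whole reads (100% of 281 dKO values and 87.3% of 267 WT values, to within 0.005 on the log2 scale) when the relative depth of the libraries was set to the best of the ratios tried, against a median over the ratios of 24.6% and 25.1%. From these steps the lowest level was taken as 1 read per library, and the approximate number of reads behind each mean gave 95% exact intervals for the changes. The intervals cover counting error only.

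Runx2 had the most regions, 6 higher and 1 lower, over a window of 419 kb on chromosome 17. Only 0.584% of 21755 protein-coding genes had 7 or more regions under the same rule, but the gene is long: per 100 kb of window, 13.0% of genes had as many. The strongest change of all 17 regions was at Runx2 +76.7 kb (44737895 to 44738262), in the intron before P2 and 1.25 kb from the nearest Runx2 start. Its authors' mean was 2.44 in WT and 6.99 in dKO, which is 5.43 and 127 normalised reads per library. The change of 4.55 (counting interval 3.73 to 5.52) corresponds to 23.4-fold. Of all listed regions, 0.799% had a larger rise. The WT mean rests on about 12 reads in both libraries together, so the fold is only loosely fixed by counting.

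The proximal Runx2 promoter itself lay 1.09 kb away, under the broad region at +78.7 kb (44735445 to 44736802, 1358 bp), which covers several annotated P2 starts and the untranslated and coding parts of the exon there. Its authors' mean was 6.98 in WT and 8.32 in dKO, a change of 1.34 (1.14 to 1.55). The dKO mean was the highest of the 17 regions, and 3.17% of the table had a higher one. The antisense transcript Runx2os1 overlaps this region, and ATAC-seq does not tell the strands apart. This region and that at +76.7 kb also fall within 50 kb of the neighbouring gene Supt3. The P2 promoter was thus already open in WT, whereas the intronic neighbour rose from near the bottom of the range, and the counting intervals of the pair do not overlap.

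Further into the gene, the rises were smaller than that at +76.7 kb. At Runx2 +89.5 kb (44725072 to 44725536, intron) the authors' mean was 5.70 in WT and 6.92 in dKO, a change of 1.22 (0.91 to 1.55). At Runx2 +124.2 kb (44690470 to 44690793, intron) it was 3.30 and 5.17, a change of 1.87 (1.17 to 2.61). At Runx2 +160.1 kb (44654433 to 44654970, intron) it was 7.37 and 8.21, a change of 0.84 (0.65 to 1.03) at the most open WT region of the set. Upstream of P1, the region at -16.6 kb (44831213 to 44831563) lies in an intron of Supt3 and rose from 2.35 to 5.54, a change of 3.19 (2.33 to 4.27) or 9.13-fold. None of the listed regions covered P1 of Runx2.

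The lower Runx2 region stood at the other end of the gene. At +269.3 kb (44545320 to 44545675) the authors' mean was 4.83 in WT and 2.94 in dKO, a change of -1.89 (-2.76 to -1.10). Only 1 of the 13 annotated Runx2 transcripts, which is marked for nonsense-mediated decay, reaches this position, and the protein-coding transcripts end 58.3 kb before it. Of all listed regions, 19.1% had a larger fall, and the median change of the lower regions of the table was -1.85.

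At Runx1, on chromosome 16, all 4 listed regions were higher in dKO. The pair upstream of P1 lies 2.18 kb apart, at the noncoding transcript Gm49723. At Runx1 -35.7 kb (92861635 to 92861993), where an exon of Gm49723 starts, the authors' mean was 3.25 in WT and 5.63 in dKO, a change of 2.38 (1.71 to 3.14) or 5.21-fold. At Runx1 -38.2 kb (92864172 to 92864520) it was 5.06 and 6.39, a change of 1.33 (0.93 to 1.74). Inside the gene, the region at +2.4 kb (92823519 to 92823912), in the intron 1.87 kb from the nearest P1 start, rose from 5.18 to 6.26, a change of 1.08 (0.70 to 1.49). The region at +172.1 kb (92653899 to 92654197) lies in an intron beyond P2 and rose from 3.34 to 5.22, a change of 1.88 (1.22 to 2.66). Of the 6 pairs of Runx1 regions, 1 had counting intervals that do not overlap. No listed region covered either Runx1 promoter.

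Runx3, on chromosome 4, had 3 regions, and all were higher in dKO. The strongest was upstream, at -22.2 kb (135097958 to 135098875, 918 bp), in intergenic DNA. Its authors' mean was 2.79 in WT and 6.47 in dKO, or 6.92 and 88.6 normalised reads per library. That is a change of 3.68 (2.96 to 4.58) or 12.8-fold, and 2.60% of the table had a larger rise. In the intron beyond P2, at +48.6 kb (135169106 to 135169454), the authors' mean was 4.75 in WT and 6.36 in dKO, a change of 1.61 (1.17 to 2.05). Downstream of the gene, at +72.3 kb (135192732 to 135193240), it was 6.59 and 7.51, a change of 0.92 (0.68 to 1.17). This last region and that at +48.6 kb also fall within 50 kb of Clic4. No listed region covered a Runx3 promoter.

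Cbfa2t3, the co-repressor gene on chromosome 8, went both ways. Close to its upstream promoter, at -1.7 kb (122700594 to 122701092), the authors' mean was 7.12 in WT and 7.94 in dKO, a change of 0.82 (0.61 to 1.02). In an intron, at +33.7 kb (122665201 to 122665617), it was 5.63 and 3.18, a change of -2.45 (-3.23 to -1.76) or 5.46-fold lower. This was the largest fall among the 17 regions. Beyond the 3′ end, at +113.4 kb (122585314 to 122586094), the authors' mean was 5.98 in WT and 7.27 in dKO, a change of 1.29 (1.01 to 1.59). That region lies inside Galns, 4236 bp from a Galns start, and the windows of 7 protein-coding genes, Galns and Gm20388 among them, also hold it, so its link to Cbfa2t3 rests on the distance rule alone. The read-through transcript Gm20388 overlaps all 3 regions.

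**Figure D2:**
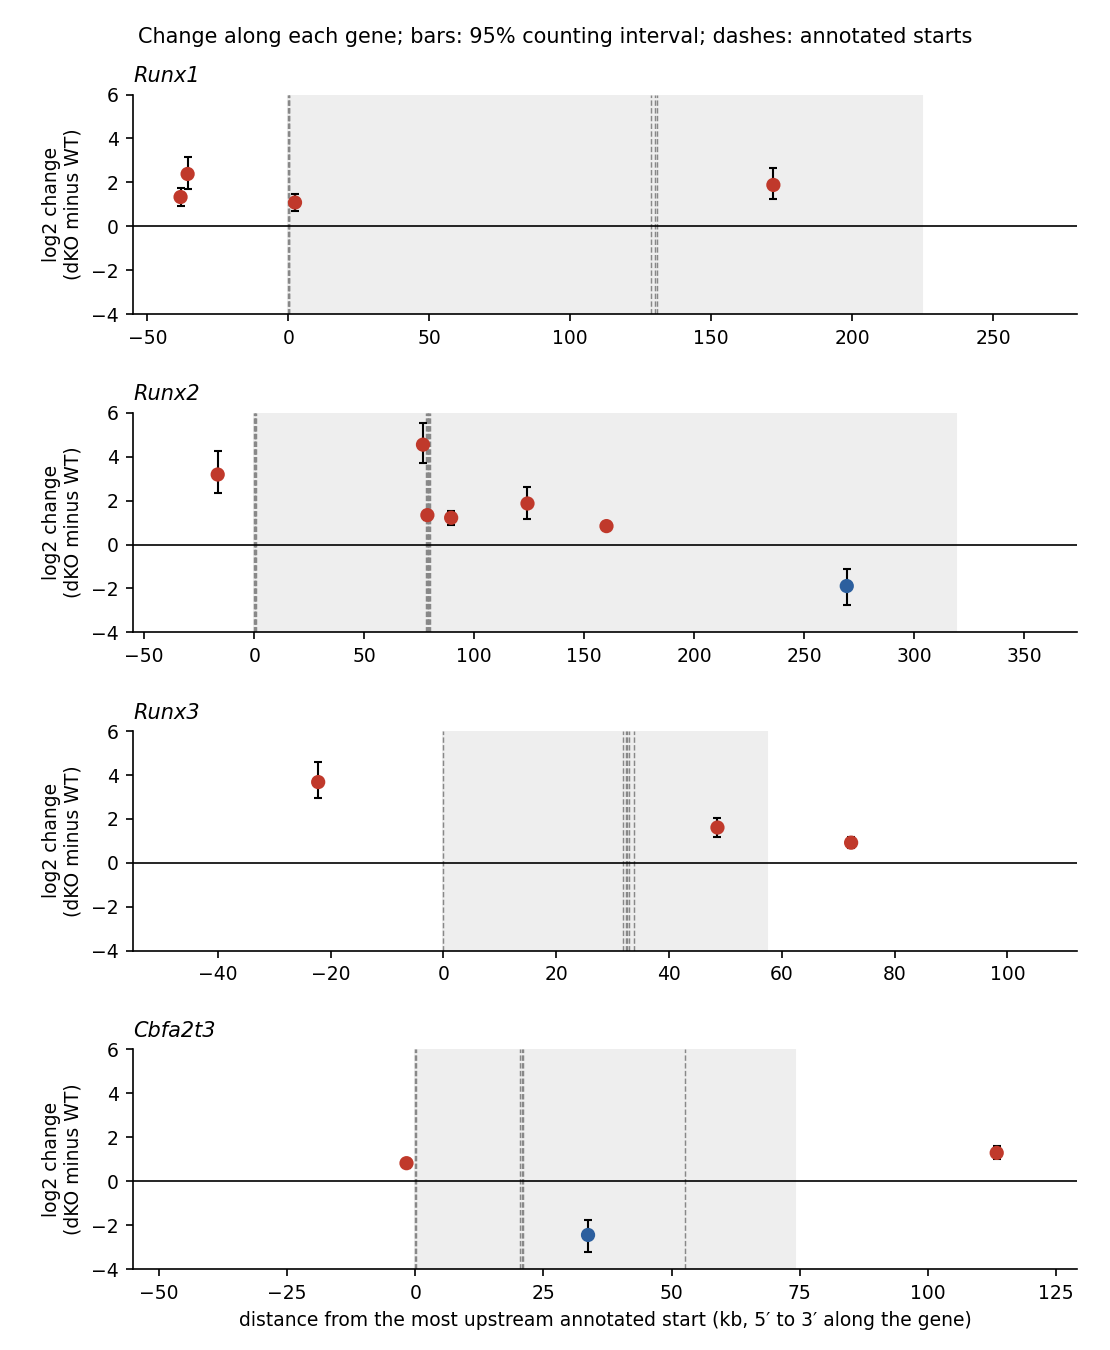
Change of the group means (y axis, log2, dKO minus WT) against the distance from the most upstream start (x axis, kb) for the 4 genes with listed regions, with 95% counting intervals (bars), gene bodies (grey) and annotated starts (dashes). The rise of 4.55 stands directly before P2 of Runx2, and the lower regions (blue) are in the far part of Runx2 and in an intron of Cbfa2t3.

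Cbfb and Runx1t1 had no listed region. For Cbfb, the closest listed region was 64.7 kb upstream (chromosome 8, 105105424 to 105105966), with an authors' mean of 6.22 in WT and 5.19 in dKO. For Runx1t1 it was 836 kb away (chromosome 4, 12906642 to 12907325), with 5.30 in WT and 6.61 in dKO. The absence of a listed region says only that none passed the authors' threshold, and 52.5% of protein-coding genes had none under the same rule.

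The 15 rises did not start from 1 level. Their WT means ran from 2.35 to 7.37 with a median of 5.06, and 6 of them were under 4. Their dKO means ran from 5.17 to 8.32 with a median of 6.47. The SD across regions was 1.79 in WT and 1.04 in dKO. All higher regions of the table had medians of 4.52 in WT and 6.23 in dKO and SDs of 1.78 and 1.12. The median change was 1.34 at the 15 regions and 1.58 over all higher regions, so the rises at these genes were not larger at the median than those of the table.

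**Figure D3:**
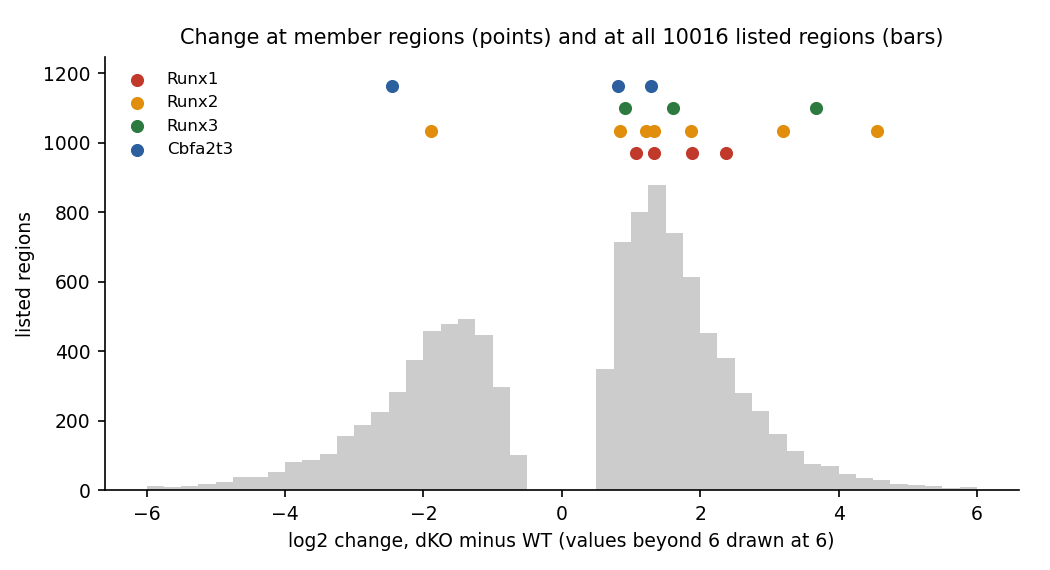
Distribution of the change (x axis, log2, dKO minus WT) over all 10016 listed regions (bars, number of regions on the y axis) with the 17 regions of Runx1, Runx2, Runx3 and Cbfa2t3 as points, 1 row per gene, whose height has no meaning, and bars beyond 6 gathered at 6. The gap around 0 is where changes did not pass the authors' threshold, and most points lie between 0.82 and 2.38.

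The direction at these genes was set beside that of their surroundings. Around Runx2, 3 of 18 listed regions within 1 Mb outside the window were higher, with a median change of -1.64, against 6 of 7 in the window. Around Cbfa2t3 7 of 24 were higher (median -1.40), against 2 of 3. Around Runx1 9 of 17 were higher (median 0.78), against 4 of 4, and around Runx3 12 of 18 (median 0.89), against 3 of 3. Outside the windows, 68.8% of the listed regions on chromosome 17, 44.6% on chromosome 8, 72.8% on chromosome 16 and 46.2% on chromosome 4 were higher. The share of rises was thus larger in each of the 4 windows than in its surroundings on either scale. With 3 to 7 regions per window, this difference was not tested.

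**Figure D4:**
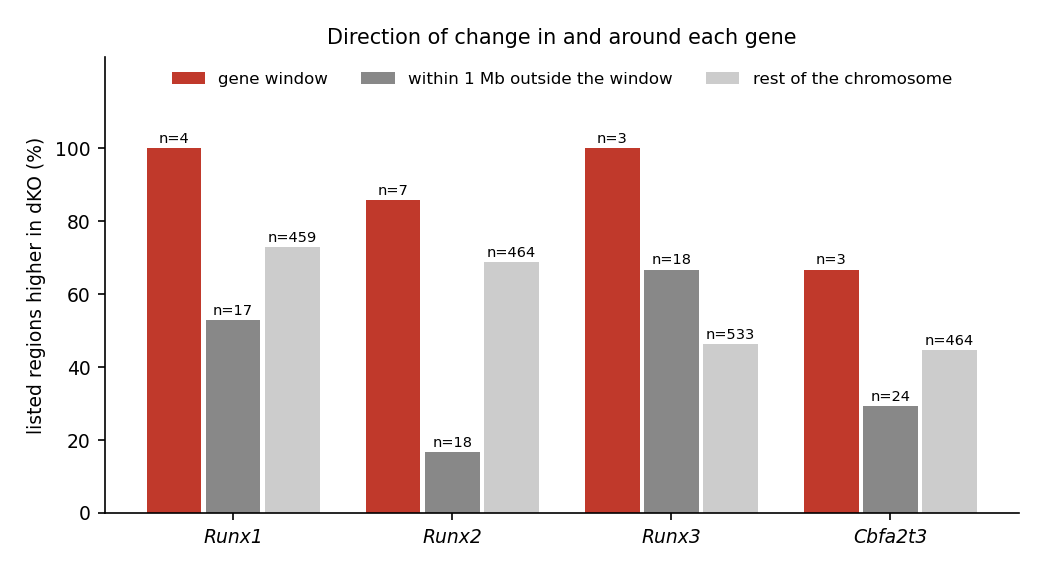
Percent of listed regions higher in dKO (y axis) in the window of each gene, in the 1 Mb to either side of the window, and on the whole chromosome outside the window (these neighbours included), with the number of regions above each bar. The window bar is the tallest for each gene, and the gap is widest at Runx2, with 3 of 18 neighbours higher.

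What the regions share in sequence was examined with the words given above and AGATAA for GATA factors, on both strands. AP-1, the FOS and JUN family that also includes BATF, was the most frequent in the central 200 bp, at 6 of 17 regions or 35.3%, against 17.9% of the table. All 6 were among the 15 higher regions, which make up most of the set, and 26.6% of all higher regions had the word. They were Runx1 +172.1 kb, +2.4 kb and -35.7 kb, Runx2 +160.1 kb and +76.7 kb, and Runx3 +48.6 kb. Over the whole region the AP-1 word was found in 8 of 17 or 47.1%, against 25.3% of the table and 36.1% of all higher regions.

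The C/EBP word was found in both regions that fell, when the whole region was searched, and in 3 of the 15 that rose. Over the table it was present in 54.3% of lower and 35.3% of higher regions. In the central 200 bp it was found in 2 of the 17 regions, or 11.8%, against 28.4% of the table, 20.2% of all higher and 40.7% of all lower regions. These were Runx2 +269.3 kb, which fell, and Runx1 -38.2 kb, which rose. The PU.1 word was in the centre of 2 regions, Runx2 +160.1 kb and -16.6 kb, or 11.8% against 9.17% of the table and 13.0% of all higher regions. The GATA word was in no centre (7.55% of the table).

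The RUNX word AACCACA was in the centre of 1 region, Runx3 +48.6 kb, or 5.88% against 11.9% of the table and 13.7% of all higher regions. A second was found at Runx3 -22.2 kb, outside the centre. The shorter core TGTGGT, which is part of the same word, was in the centre of 7 regions or 41.2%, against 29.3% of the table and 32.9% of all higher regions. All 7 were higher regions, and they included the 3 regions of Runx3. Which share is above that of the table thus depends on the word searched. A match is a string of letters and does not show binding.

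The RefSeq promoter table (GRCm38.p6, 250 bases before to 50 after a start) held 8 promoters of 5 of the genes, and Runx1t1 had no entry. No listed region overlapped any of them. The RUNX word was found in 3 of the 8, the distal promoters of Runx1, Runx2 and Runx3, and in 5.27% of all 32851 promoters of the table. P2 of Runx2, the promoter under a listed region, had no entry. The 17 regions had a GC content from 44.1% to 67.2% with a median of 52.5%, against 49.0% over the table, and the highest was that of the Runx2 P2 region. Their median width was 394 bp, against 400 bp.

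Other genes through which RUNX factors work were taken as 4 lists, 40 genes in all, under the same window of 50 kb. Factors that bind with RUNX1 had 19 higher and 7 lower regions at 8 of 12 genes. Of the 7 lower regions, 1 covers the deleted Cebpa gene itself, and without it, a choice made after seeing the data, 19 were higher and 6 lower (76.0%, median change 1.69). Erg, an ETS factor of blood stem cells, had 8 regions and Gata2, a stem cell and mast cell GATA factor, had 6, all higher. Fli1, an ETS relative of Erg, had 3 regions, all lower, with changes from -2.16 to -0.77. Lyl1, a partner of RUNX1 in progenitors, had 1 higher and 2 lower. Spi1, Tal1, Lmo2 and Ldb1 had none.

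Relatives of Cbfa2t3 and other co-repressors had 15 higher and 2 lower regions at 6 of 9 genes. The Groucho-type co-repressor Tle4 had 5 higher and 1 lower, from -2.39 to 3.72, Tle3 had 3 higher, from 0.96 to 1.49, and the histone deacetylase gene Hdac3 had 4 higher, from 0.73 to 1.11. Co-activators and modifiers had 19 higher and 4 lower at 6 of 8 genes. Cdk6, a cell cycle kinase that binds RUNX1, held 12 of the rises and 2 of the falls, with changes from -1.66 to 1.74. Crebbp, a histone acetyltransferase, had 3 higher, and Kat6a and Hipk2 had 2 higher each.

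Genes known as RUNX targets had 10 higher and 2 lower regions at 6 of 11 genes. Csf1r, the receptor for macrophage colony-stimulating factor, had 3 higher, from 1.08 to 2.55. Accessibility is not expression, and the paper reports that Csf1r expression was lower in dKO cells. Elane, for neutrophil elastase, and Gfi1, for a transcriptional repressor that neutrophil development requires, had 2 higher each. Mpo, for myeloperoxidase, and Zbtb7b, a T cell factor, had 1 higher and 1 lower each. Cd4, for the T cell co-receptor, had 1 higher, of 1.29, and Csf2, Il3, Itgal, Nfe2 and Pf4 had none. The target list is partial, so no share is given for it. The shares of higher regions in the other 3 lists were 73.1%, 88.2% and 82.6%, beside 60.3% over all regions, and the medians 1.64, 1.03 and 1.08 beside 0.98. With means under the level of 3 reads set to that level, the medians were the same.

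**Figure D5:**
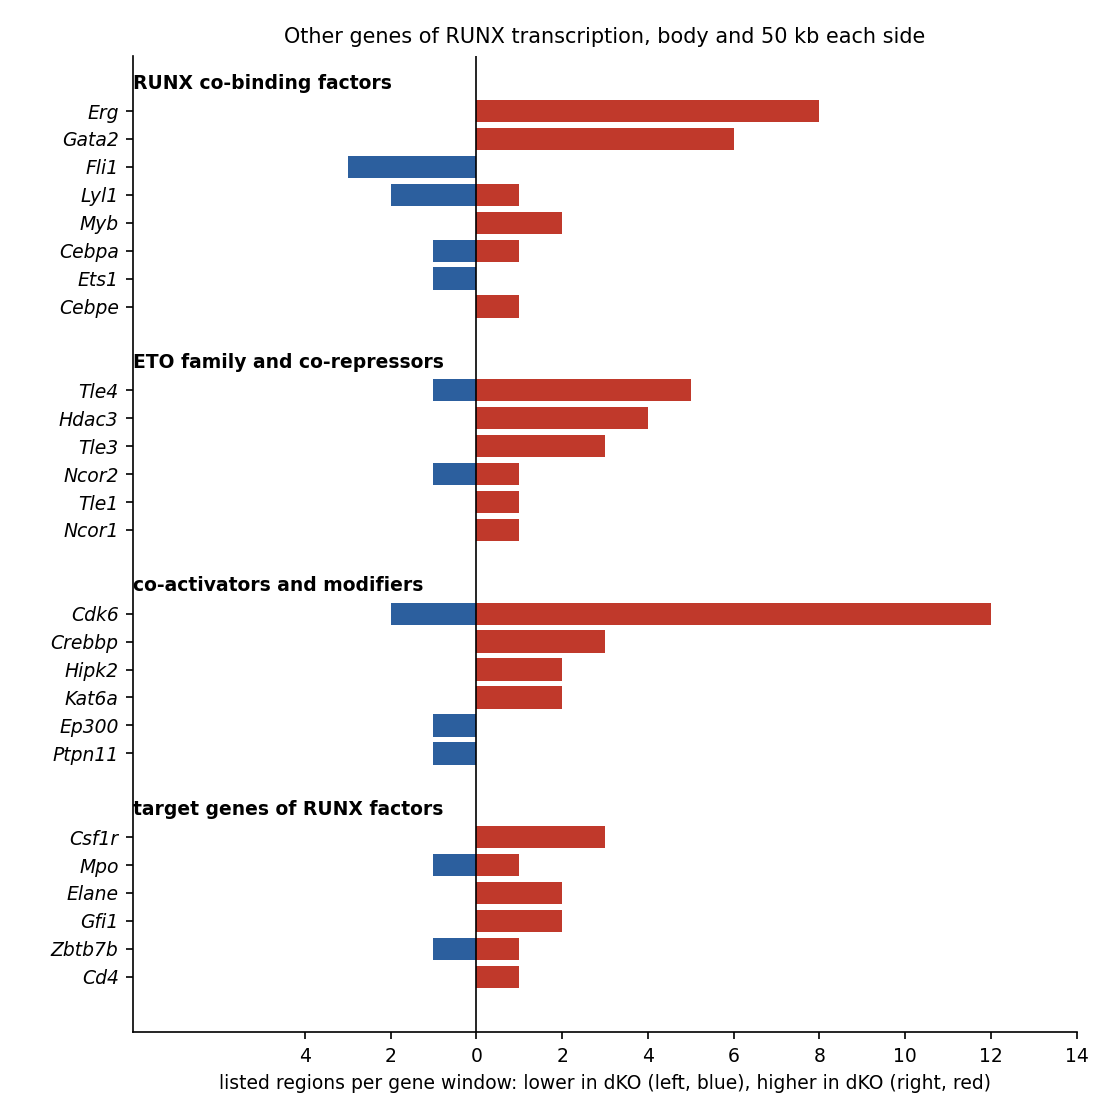
Number of listed regions per gene (x axis) within the gene body and 50 kb to each side, higher in dKO to the right (red) and lower to the left (blue), for the genes of the 4 lists that had any. Cdk6 has the longest bar with 12 higher regions, and Fli1, Ets1, Ep300 and Ptpn11 have lower regions alone.

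For each of the 4 genes with regions, the protein-coding genes with the same number of higher and lower regions and the nearest median change were looked up, over the means of 2 groups. For Runx1 (4 higher, median 1.60) these were Kif5a, Myom1 and Rnf220 out of 205 genes with the same counts. For Runx2 (6 higher and 1 lower, median 1.34) they were H3f3a, Dyrk3 and Kcnip1 out of 9. For Runx3 (3 higher, median 1.61) they were Fosl2, Top2a and Bin2 out of 457, and for Cbfa2t3 (2 higher and 1 lower, median 0.82) Ltbp1, Hsf2bp and Klhl20 out of 295.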

How the data were processed

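ATAC-seq libraries of WT and dKO cells, 2 each, enter the deposited table as group means. Reads went through a PiGx pipeline of the authors, with Bowtie 2 for alignment to mm10 and MACS for peaks, and DiffBind 2.14.0 (submitters' processing notes) for the comparison, with 0.05 as its limit on corrected p-values. Nothing in the sources used here says whether duplicates were removed, which raise strong regions when they stay in, or whether the Tn5 offset was applied, which moves edges by a few bases. The values deposited by the authors are log2 means of normalised reads. Columns with the authors' own fold, p-value and false discovery rate were deposited too, and were not used, beyond checking on the table that no adjusted p-value is above 0.05. The 2 deposited files were identical and had no dKO-LAP* column, so 1 table was analysed. The labels give an average of 25000000 reads per library, and the depth of each is unknown. Whether the libraries of a group came from separate cultures is not given in the sources used here.

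Regions were assigned by GENCODE M21 with Python 3.11 and pandas 2.3.3. Sequences came from GRCm38.p6, the assembly of mm10. The lowest mean of -0.15 (0.901 normalised reads) was taken as 1 read per library, which puts 3 reads at 1.43. Intervals are exact Clopper-Pearson intervals on the approximate reads, from scipy 1.17.1. Overlap, motif search and intervals were tested on simulated data. The authors' test per region was not used, and no test between groups was run, since the table gives no value per library. The genes, lists and motifs were chosen with earlier results of these data known. From each list the 3 genes with most regions are named, ties included, with some others chosen after their values were seen, and 1 further gene of the target list, left out for a reason unrelated to its values, is not reported here, so that list's counts are partial.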

Additional observations from a re-analysis of the deposited data

How the results depend on the processing

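Higher regions numbered 15 and lower regions 2 with the gene body and 50 kb. With 10 kb, 9 were higher and 2 lower. With 100 kb, 20 were higher and 4 lower, and the added lower regions included 1 at Cbfb and 1 at Runx1. By the nearest start within 100 kb, 8 were higher and 1 lower. Without regions whose higher mean was at or under 5.39, the lower quartile of the table, 13 were higher and 1 lower. The share of the whole table under that filter is not given here. Counting changes of at least 1 gave 12 and 2. Centring on the median change of 0.98 gave 12 and 5, and reversed Runx2 +160.1 kb (-0.14), Runx3 +72.3 kb (-0.06) and Cbfa2t3 -1.7 kb (-0.16), as it does by construction for rises under 0.98. The RUNX share was 5.88% with AACCACA, 11.8% over whole regions and 41.2% with TGTGGT. The C/EBP share was 11.8%, 29.4% over whole regions and 5.88% with TTGCNNAA. Set against 1 read per library, the falls at the lowest level were at least 1130-fold at Cebpa and at least 185-fold at the second Cebpb region, and the Cebpb region over the start, which is above the floor, was 37.5-fold lower either way.

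No paired analysis was possible because only the means of WT and dKO are listed. Replicates were not left out in turn and no replicate block was run, since both need the single libraries. The thinnest mean, at Runx2 -16.6 kb in WT, rests on about 11 reads, which limits how closely its fold is known.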
